A study of Mus musculus with 9 samples.

Results

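The comparison covers 4 expression arrays, 2 from preSC transduced with a retrovirus for C-Myc and 2 from preSC transduced with a retrovirus for N-Myc, out of 9 arrays in all. They were chosen by their titles, and the genes were then separated into those in which both C-Myc arrays lay apart from both N-Myc arrays and those in which only the array titled C-Myc-preSC 2 did. preSC are cultured mouse cells, described as preneoplastic neuroendocrine cells of the lung, from animals of mixed C57BL/6 and 129/Sv background carrying conditional Rb, p53 and p130 alleles that were deleted in the lung by an adenovirus with Cre. All 4 arrays carry that genotype, as do the 3 arrays of untransduced preSC and the 2 arrays of preSC with a retrovirus for L-Myc that serve as reference here. The labels list no treatment and no stroma for the 4 arrays, and total RNA was hybridised. The series calls the replicates biological, and neither the number of independent transductions nor whether a line is 1 clone is given in the labels. The labels of the 4 arrays hold short codes that differ between replicates, and their meaning, such as a parental line, is not given.

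C-Myc, N-Myc and L-Myc are transcription factors of the same family. Each pairs with the small protein Max and binds the DNA hexamer CACGTG, the E-box, at promoters of genes for ribosome assembly, nucleotide synthesis and metabolism. In small cell lung cancer, a neuroendocrine tumour that usually lacks RB and p53, amplification of a MYC family gene is a recurrent event, and the comparison asks which transcripts differ with the family member.

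The values are log2 RMA values, a scale on which a difference of 1 is 2-fold, and each gene is given by 1 probe set. The replicates of a title were not alike. C-Myc 1 and C-Myc 2 differed over 2-fold at 3035 of 45101 probe sets, whereas N-Myc 1 and N-Myc 2 differed at 13. C-Myc 1 differed from the N-Myc arrays at 194 and 182 probe sets, and C-Myc 2 at 2915 and 2515. The array closest to C-Myc 2 was L-Myc 2, with 41 probe sets over 2-fold apart and a correlation of 0.996 over probe sets. C-Myc 1 lay with the N-Myc arrays and C-Myc 2 with an array of another title, and results are given for each C-Myc array separately. Neuroendocrine markers were detected in all 4 arrays, with 26 of 28 above the 40th percentile of each array. That cut was passed in at least 2 arrays by 12976 of all 18193 genes. Over the 26 tested markers, preSC had a median of 0.54 against the N-Myc mean, C-Myc 1 of -0.14 and C-Myc 2 of 0.22. Chga, which encodes chromogranin A, stood at 9.43, 9.96, 9.71 and 9.61 in C-Myc 1, C-Myc 2, N-Myc 1 and N-Myc 2. In preSC it stood at 10.86 to 11.33. Insm1, a neuroendocrine transcription factor, stood at 11.64, 11.92, 12.05 and 11.67 in the same order, and at 10.90 to 11.67 in preSC. Both markers were chosen after their values were seen. The difference of the 5' from the 3' probe set of Actb lay between -0.31 and -0.20 in the 4 arrays.

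The transduced genes were examined first. Myc, with 1 probe set, stood at 11.22 in C-Myc 1, 10.68 in C-Myc 2, 11.96 in N-Myc 1 and 11.40 in N-Myc 2, against 6.50, 6.82 and 8.13 in preSC 1, 2 and 3. The Myc transcript was thus high under both titles and was somewhat lower in both C-Myc than in both N-Myc arrays, a difference that did not pass the test (difference of means -0.73, SE 0.66, limma adjusted p = 0.936). In contrast, C-Myc 2 exceeded L-Myc 2, at 7.29, by 3.40 in Myc, the largest difference between these arrays with 1 probe set per gene. Whether the Myc probe set reads the retroviral transcript is not given. N-Myc arrays were marked by the dimmest of 3 Mycn probe sets, at 9.05 and 8.46 against 5.83 and 5.79 in the C-Myc arrays and 6.05 to 6.39 in preSC. The second-brightest did not mark them: it stood at 5.62 and 5.47 in the N-Myc arrays, 5.38 in C-Myc 1 and higher in C-Myc 2 (C-Myc mean 6.19 ± 1.15, SD, n = 2), and 7.74 to 8.52 in preSC. The brightest Mycn probe set ran the other way. It stood at 13.54 and 13.08 in the C-Myc arrays, 11.64 and 11.07 in the N-Myc arrays, 12.92 and 13.33 in the L-Myc arrays and at most 6.89 in preSC. Since it was bright in every transduced array, whatever the transduced gene, it is not read as Mycn expression.

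Pvt1, a noncoding RNA gene next to Myc, split the C-Myc arrays. Its brightest probe set stood at 13.11 in C-Myc 1 and 7.51 in C-Myc 2, against 13.58 and 13.63 in the N-Myc arrays and 5.40 to 6.69 in preSC. Its 4 other probe sets also placed C-Myc 2 lowest and C-Myc 1 below both N-Myc arrays, for example 11.69, 5.28, 12.41 and 12.33 on one of them. Lratd2, the next tested gene on the other side of Myc, stood at 11.64, 9.27, 13.18 and 12.83, and Macroh2a3, beyond Pvt1, at 9.66, 8.49, 9.90 and 9.94. High Myc thus came with high Pvt1 and Lratd2 in C-Myc 1 and both N-Myc arrays. Lratd2 stood at 10.38 to 10.87 in preSC and at 8.62 and 9.22 in the L-Myc arrays. In C-Myc 1 it was thus much less far above preSC than Pvt1 was, and in C-Myc 2 it was below preSC. In C-Myc 2 the brightest Pvt1 probe set was above preSC but far below C-Myc 1 and the N-Myc arrays. Beyond Lratd2, Trib1, a pseudokinase gene, stood at 8.32, 8.19, 9.33 and 9.04, with both C-Myc arrays below the N-Myc arrays. Farther out, Nsmce2 stood at 10.03, 9.94, 9.80 and 9.77 and did not follow that order.

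**Figure D1:**
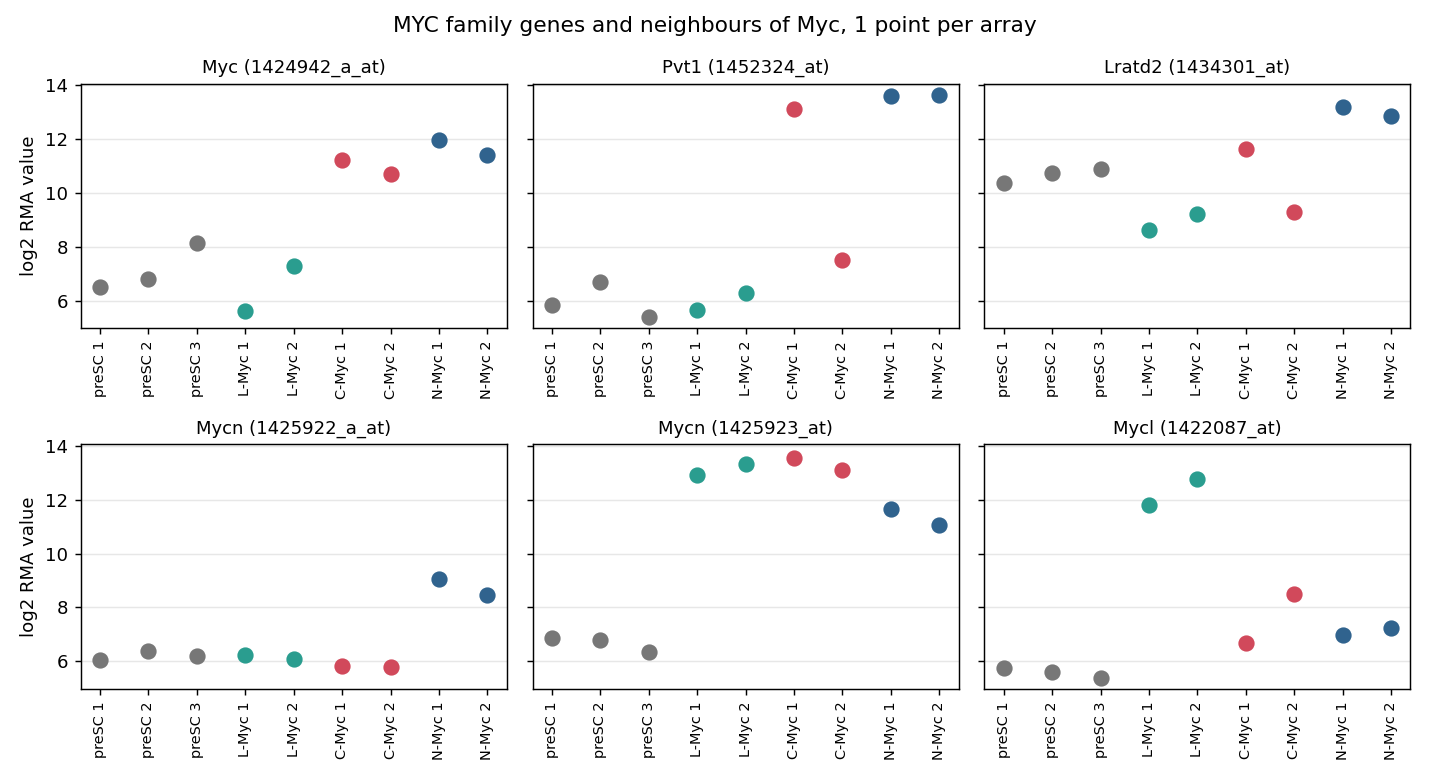
Log2 RMA value (y axis) of 6 probe sets in each of the 9 arrays (x axis, 1 point per array, coloured by title). Myc is high in both C-Myc and both N-Myc arrays, Pvt1 is at 7.51 in C-Myc 2 but above 13 in C-Myc 1 and the N-Myc arrays, and the dimmest Mycn probe set (lower left) is high in the N-Myc arrays alone.

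Across 12976 tested genes, no difference between the C-Myc and N-Myc group means passed a limma adjusted p of 0.05 (0 genes, 0.0%; lowest adjusted p 0.936). At an unadjusted p under 0.05 there were 541 genes (4.17%). The fit with C-Myc 2 as the only C-Myc array, which assumes that this array varies like the other groups, called 419 genes (3.23%), of which 264 were higher (2.03%) and 155 lower (1.19%), with 20.1% of genes at an unadjusted p under 0.05. The fit with C-Myc 1 as the only C-Myc array called 0 (0.0%), with 384 genes (2.96%) at an unadjusted p under 0.05. The genes are therefore described below by the values of each array, and the counts that follow are descriptions of these 4 arrays, not calls.

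Both C-Myc arrays lay at least 2-fold from both N-Myc arrays, on the same side, in 22 genes (0.17%), with 13 higher (0.1%) and 9 lower (0.0694%). Only C-Myc 2 lay that far out, with C-Myc 1 within 0.5 of the N-Myc mean, in 746 genes (5.75%): 458 higher (3.53%) and 288 lower (2.22%). The mirror class, only C-Myc 1, held 11 genes, with 3 higher (0.0231%) and 8 lower (0.0617%). With no minimum distance, the arrays of the 2 titles did not overlap in 33.1% of genes, 15.1% with C-Myc above and 18.0% with C-Myc below. Of 1028 genes in which C-Myc 2 lay at least 2-fold from both N-Myc arrays, C-Myc 1 was within 0.5 of the N-Myc mean in 810 (78.8%) and over 0.5 away on the opposite side in 94 (9.14%). The median size of the difference from the N-Myc mean was 0.15 for C-Myc 1 and 0.29 for C-Myc 2, and the 99th percentile was 0.89 and 2.78. Between single arrays, C-Myc 1 was at least 2-fold from N-Myc 1 in 98 genes and from N-Myc 2 in 103, C-Myc 2 in 1399 and 1192, and the N-Myc arrays were that far apart in 5.

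**Figure D2:**
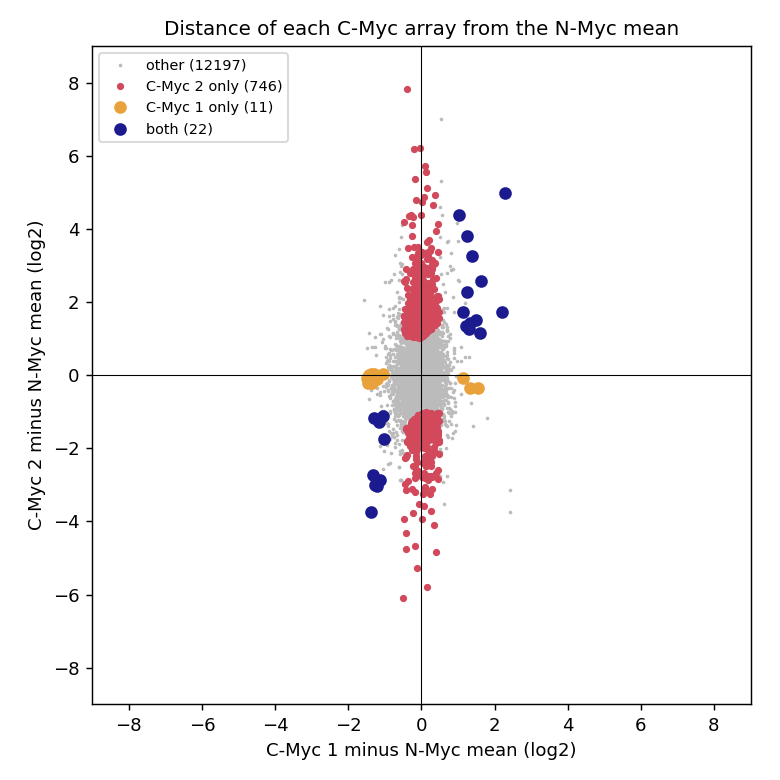
Difference of C-Myc 1 (x axis) and of C-Myc 2 (y axis) from the mean of the N-Myc arrays, in log2 units, 1 point per tested gene and coloured by class. The points spread along the y axis, reaching 7.82 for Ctsz, while the largest distance of C-Myc 1 is 2.43.

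The 22 genes shared by both C-Myc arrays were led by Slc6a15, which encodes a neutral amino acid transporter of neurons. Slc6a15 stood at 7.64 and 10.35 in C-Myc 1 and 2 and at 5.34 and 5.39 in N-Myc 1 and 2 (difference of means 3.63, SE 0.72, limma adjusted p = 0.936). preSC lay between, at 8.40 to 8.61, so the N-Myc arrays were the low ones. The same held for Pcdh10, a protocadherin of neural cell adhesion, at 6.43, 8.30, 4.79 and 5.29 against 8.93 to 9.41 in preSC. Piezo2, a mechanically gated ion channel, stood at 7.39, 9.94, 6.06 and 6.22 against 9.39 to 9.68 in preSC. In these 3 genes C-Myc 1 lay between the N-Myc arrays and preSC, while C-Myc 2 was above preSC in Slc6a15 and Piezo2 and below it in Pcdh10.

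A second set was alike in both C-Myc arrays: the C-Myc arrays lay within 0.5 of each other in 9 of the 22 genes, and in the other 13 C-Myc 2 was the farther one. The 9 include Mycn through its brightest probe set, which is not read as Mycn expression. Zfp462, a zinc finger protein gene, stood at 8.95 and 8.96 in the C-Myc arrays and 7.62 and 7.29 in the N-Myc arrays. Itprid2 stood at 9.02 and 9.14 against 7.92 and 7.69, and Angpt1, which encodes the Tie2 ligand angiopoietin 1, at 7.36 and 7.48 against 5.82 and 6.26. Pdzrn4 stood at 7.87 and 7.82 against 6.60 and 6.53. For Zfp462 and Itprid2 the preSC arrays, at 9.07 to 9.82 and 8.69 to 9.33, were near the C-Myc level, whereas for Pdzrn4 preSC was lowest, at 5.30 to 5.81, and the L-Myc arrays, at 7.75 and 7.84, matched C-Myc. Idi2, an isoprenoid synthesis gene, stood at 7.95 and 7.49 in the C-Myc arrays against 6.26 and 6.44.

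Igfbp2, which encodes a binding protein of insulin-like growth factors, stood at 7.95 and 8.89 in the C-Myc arrays and 6.36 and 6.26 in the N-Myc arrays, with preSC at 4.43 to 4.73. Igfbp7, another secreted member of that wider group, was lower, at 8.12 and 6.70 against 9.36 and 9.54. Its second-brightest probe set differed from the N-Myc mean by 0.14 in C-Myc 1 and 0.07 in C-Myc 2, and its dimmest by -0.19 and -0.39. Smoc2, which encodes a matrix-associated calcium-binding protein, stood at 6.57 and 4.85 against 7.85 in each N-Myc array. Rps6ka6, a ribosomal S6 kinase gene, was higher, at 8.63 and 9.21 against 7.37 and 7.59, and Rasgrf2, an exchange factor for Ras and Rac, was lower, at 6.97 and 5.22 against 8.07 and 8.13.

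Among the 9 lower genes, Tph1, the rate-limiting enzyme of serotonin synthesis outside the brain, stood at 6.46 and 4.65 in the C-Myc arrays and 7.50 and 7.85 in the N-Myc arrays, with preSC at 4.11 to 4.44. Gch1, whose product starts the synthesis of tetrahydrobiopterin, the cofactor of tryptophan hydroxylase, stood at 10.69 and 10.63 against 11.76 and 11.75 (difference -1.09, SE 0.16, limma adjusted p = 0.936). Aoc1, a diamine oxidase gene, stood at 8.25 and 7.52 against 9.26 in each N-Myc array. Slc40a1, the iron exporter ferroportin, stood at 7.20 and 7.08 against 8.34 and 8.37, and Ly6h at 8.86 and 8.98 against 10.08 and 10.20. Tmem74, at 6.38 and 7.42 against 5.07 and 5.21, and Gpx3, a secreted glutathione peroxidase gene, at 6.89 and 10.23 against 5.84 and 5.86, complete the higher genes with Mycn. Mycn is counted there through its brightest probe set, which is not read as Mycn expression; without it 21 genes remain, 12 of them higher. Just outside the 2-fold rule were Thsd7a, at 7.25 and 7.93 against 6.17 and 6.27, and Epas1, at 5.67 and 4.87 against 6.93 and 6.67, and just inside were Gpx3 and Aoc1.

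Further probe sets gave a mixed picture. Of 6 higher genes with a second probe set, 4 kept the direction on it and 1 met the 2-fold rule, and of 5 lower genes 4 and 1 did. L-Myc 2 lay within 0.5 of C-Myc 2 in 21 of the 22. Over all tested genes the size of the difference between these arrays had a 90th percentile of 0.31.

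The promoters of these genes were read for the E-box, because it is the sequence that both proteins bind. RefSeq promoter sequences (GRCm38.p6, from 250 bases before to 50 after a start) were at hand for 13 of the 22 genes, and 3 held CACGTG, which reads the same on both strands. Of the tested genes with a promoter, 1196 of 10442 (11.5%) held it, the share over all 32851 promoters was 7.15%, and of the genes apart only in C-Myc 2 it was 62 of 599 (10.4%). The 250 bases before the start of the 3 genes are shown 5' to 3', with the hexamer in capitals; it begins 142, 83 and 47 bases before the start. Igfbp2 and Itprid2, higher in the C-Myc arrays, are on the plus strand at chr1:72824230-72824479 and chr2:79635175-79635424, and Rasgrf2, lower in the C-Myc arrays, is on the minus strand at chr13:92131829-92132078.
Igfbp2: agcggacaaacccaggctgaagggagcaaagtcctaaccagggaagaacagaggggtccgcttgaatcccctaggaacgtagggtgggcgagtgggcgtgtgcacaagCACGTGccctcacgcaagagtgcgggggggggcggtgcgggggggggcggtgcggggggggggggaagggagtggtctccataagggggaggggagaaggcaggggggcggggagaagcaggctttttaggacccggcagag
Itprid2: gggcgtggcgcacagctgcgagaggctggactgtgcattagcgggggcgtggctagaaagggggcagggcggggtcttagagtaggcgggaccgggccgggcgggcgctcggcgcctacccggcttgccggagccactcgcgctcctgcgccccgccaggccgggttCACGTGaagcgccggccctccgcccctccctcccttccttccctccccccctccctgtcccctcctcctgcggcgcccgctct
Rasgrf2: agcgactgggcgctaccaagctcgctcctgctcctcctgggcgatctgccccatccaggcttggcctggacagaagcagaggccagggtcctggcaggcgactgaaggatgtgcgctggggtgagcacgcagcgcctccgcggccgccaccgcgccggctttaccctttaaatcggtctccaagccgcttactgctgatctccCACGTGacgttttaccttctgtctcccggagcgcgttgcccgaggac
A second start of Igfbp2 in the table held no CACGTG. A match describes the letters only, and binding was not measured.

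Genes apart only in C-Myc 2 spanned a wide range. The most distant was Ctsz, which encodes the lysosomal protease cathepsin Z, at 3.69 in C-Myc 1, 11.90 in C-Myc 2 and 4.20 and 3.97 in the N-Myc arrays. preSC, at 11.81 to 12.27, and the L-Myc arrays, at 12.34 and 11.94, were all at the level of C-Myc 2, so the signal was near background only in C-Myc 1 and the N-Myc arrays. Wfdc2, a secreted protease inhibitor gene of airway epithelium, stood at 4.48, 10.87, 4.67 and 4.70, and Alcam, a cell adhesion molecule gene, at 4.91, 10.52, 4.91 and 4.70. Lrrn1, a neuronal leucine-rich repeat protein gene, stood at 4.24, 8.96, 4.23 and 4.23, with all preSC and L-Myc arrays between 8.85 and 9.84. For these genes the other 6 arrays were high and C-Myc 1, N-Myc 1 and N-Myc 2 were low together.

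Other genes were high in C-Myc 2, L-Myc 2 and preSC 3. Anxa1, which encodes the phospholipid-binding protein annexin A1, stood at 4.92, 9.87, 4.59 and 4.92, with 9.89 in L-Myc 2 and 11.61 in preSC 3 but 4.61, 4.73 and 4.22 in preSC 1, preSC 2 and L-Myc 1. Cdh9, a cadherin gene, stood at 4.61, 9.26, 4.80 and 4.99, with 9.65 in L-Myc 2 and 9.81 in preSC 3. Fst, the secreted activin antagonist follistatin, was high in C-Myc 2, at 9.21, and L-Myc 2, at 9.34, against 4.26, 4.24 and 4.59 in C-Myc 1, N-Myc 1 and N-Myc 2, and not in preSC 3, at 4.95.

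Among genes lower in C-Myc 2, Maf, a basic leucine zipper transcription factor gene, stood at 11.42 in C-Myc 1, 5.49 in C-Myc 2 and 11.24 and 11.32 in the N-Myc arrays, with 5.89 in L-Myc 2 and 3.85 in preSC 3. Anxa5, which encodes annexin A5, stood at 10.39, 5.25, 10.49 and 10.55, and Sgk1, a serum- and glucocorticoid-induced kinase gene, at 9.85, 6.40, 10.28 and 10.38. Klhl41, at 10.33, 5.08, 9.86 and 9.97, and Fam169a, at 8.34, 4.35, 8.03 and 8.10, were bright in C-Myc 1 and the N-Myc arrays alone, all other arrays being at or below 5.13 for Klhl41 and 4.79 for Fam169a. Sftpc, which encodes surfactant protein C of alveolar type II cells, stood at 10.68, 6.17, 10.59 and 11.10, with 8.42 and 8.27 in preSC 1 and 2. In all 6 genes C-Myc 1 lay within 0.5 of the N-Myc mean, as the class requires.

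Markers of other cell types were checked beside these genes. Of 19 club, alveolar and ciliated cell markers, 10, 8, 10 and 10 lay above the 40th percentile in C-Myc 1, C-Myc 2, N-Myc 1 and N-Myc 2, with list means of 5.66, 5.44, 5.76 and 5.75, of which Sftpc was the member in the class. Of 15 fibroblast and stroma markers, 4, 5, 5 and 5 did, with means of 4.96, 5.29, 5.10 and 5.01, and Dcn, the matrix proteoglycan decorin, stood at 5.33, 9.69, 5.70 and 5.46. Leukocyte markers averaged 5.83, 5.45, 5.75 and 5.70, with Lyz2, a lysozyme gene, at 12.31, 6.76, 9.78 and 10.01. Glia markers averaged 6.09, 5.89, 6.16 and 6.16, and the class held Pmp22, a myelin protein gene, at 8.12, 5.06, 7.80 and 7.87, and Fabp7, a fatty acid binding protein gene, at 5.06, 6.13, 4.60 and 4.69. The glia markers Olig1 and Olig2 were at most 4.18 in the 4 arrays. Other members of that list were bright, with Mbp at 10.57, 10.43, 11.01 and 10.65 and Erbb3 at 7.04, 7.55, 7.43 and 7.58. The part of other cells in the results was not tested, and fewer cells of a type cannot be told apart from less RNA per cell.

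The class was then set beside the arrays that did not define it. L-Myc 2 lay within 0.5 of C-Myc 2 in 694 of the 746 genes (93.0%) and nearer to it than to the N-Myc mean in 745. Such closeness was not particular to the class: over all tested genes the size of the difference between C-Myc 2 and L-Myc 2 had a 90th percentile of 0.31. preSC 3 was nearer to C-Myc 2 in 596 (79.9%), preSC 1 in 404 (54.2%), preSC 2 in 417 (55.9%) and L-Myc 1 in 400 (53.6%). The differences of C-Myc 2 from C-Myc 1 and of L-Myc 2 from L-Myc 1 share no array. Across the 746 genes they correlated with r = 0.66, and across all tested genes with r = 0.44. The difference of preSC 3 from the mean of preSC 1 and 2 correlated with that of C-Myc 2 from C-Myc 1 with r = 0.60 and 0.43. These are descriptions across genes, which are not independent, and the class was selected on 1 of the 2 differences. Of 217 higher genes with a further probe set, 208 kept their direction on it and 116 met the full rule, and of 147 lower genes 145 and 87 did.

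**Figure D3:**
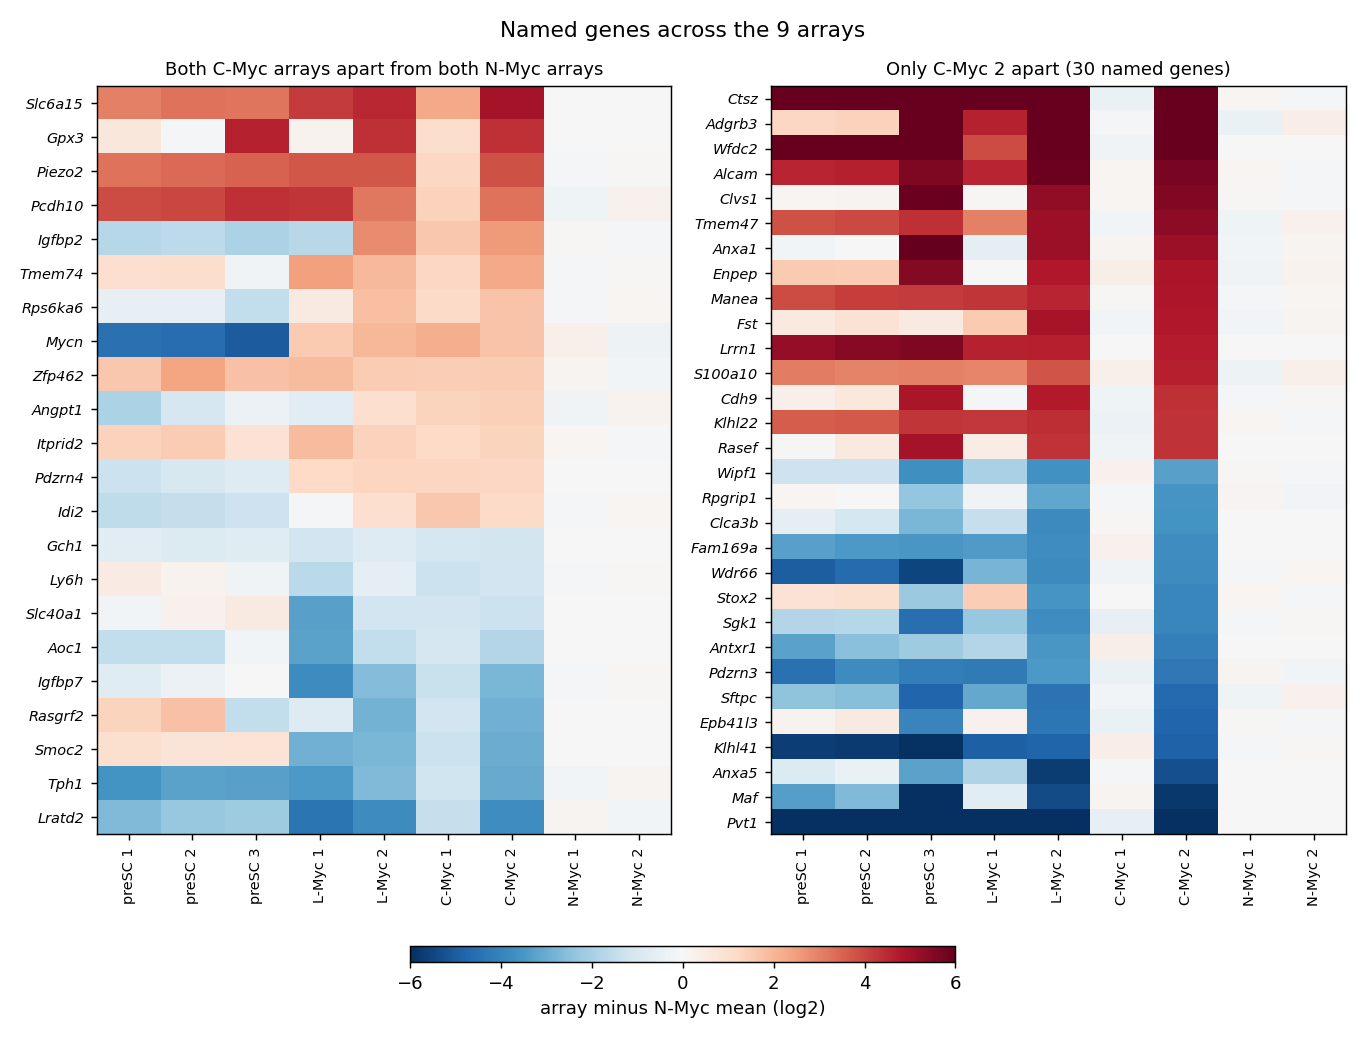
Colour gives the log2 value of each array (columns) minus the N-Myc mean for named genes (rows), saturating at 6 in either direction. On the left are the 22 genes apart in both C-Myc arrays, and on the right 30 genes apart only in C-Myc 2, where the columns of L-Myc 2 and C-Myc 2 look alike and that of C-Myc 1 is near 0.

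Gene groups differed in how many members were apart only in C-Myc 2. Against 5.75% of all tested genes, the class held 5 of 12 antigen presentation genes (41.7%), 13 of 42 neuronal adhesion and axon guidance genes (31.0%), 9 of 30 genes of TGF-beta, activin and BMP signalling, 6 of 22 interferon response genes (27.3%), 5 of 20 glycolysis genes, 5 of 21 serpin and lysosomal protease genes (23.8%) and 9 of 43 ion channel and neurotransmitter receptor genes (20.9%). Of the marker lists, it held 2 of 6 tested glia markers (33.3%). It held none of 68 ribosome biogenesis genes, 28 translation factors, 33 S phase and DNA replication genes or 26 cholesterol synthesis genes. The lists were chosen with earlier results of these data known, and no list was tested.

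MHC class I genes, which present peptides to T cells, were among the higher ones. H2-K1 stood at 9.48, 11.35, 9.68 and 10.19, and H2-D1 at 9.62, 11.65, 9.88 and 10.28 in C-Myc 1, C-Myc 2, N-Myc 1 and N-Myc 2. Psmb9, an immunoproteasome subunit gene, stood at 5.87, 7.80, 5.92 and 6.08, and Tap1, a peptide transporter gene, at 4.73, 6.25, 5.08 and 5.11. B2m, the light chain of the same MHC molecules, was on the opposite side, at 8.50, 7.03, 8.80 and 8.95. preSC, at 11.41 to 11.88 for H2-K1 and 8.88 to 10.24 for B2m, was high in both. Among interferon response genes, Ifit2 stood at 4.73, 8.57, 5.03 and 5.17 and Xaf1 at 4.49, 6.16, 4.76 and 4.58, while Usp18, which curbs interferon signalling and was chosen after its values were seen, differed from the N-Myc mean by 0.47 in C-Myc 1 and -1.26 in C-Myc 2. Probe sets of the H2 genes can share sequence with close paralogs.

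All 9 ion channel and receptor genes of the class were higher in C-Myc 2. Gabra4, a GABA receptor subunit gene, stood at 3.89, 6.59, 3.51 and 3.52, Kcnc2, a potassium channel gene, at 3.71, 6.57, 3.82 and 3.56, and Grm7, a glutamate receptor gene, at 4.93, 6.87, 4.77 and 4.75. Axon guidance genes ran both ways, 9 higher and 4 lower. Sema3d, a secreted semaphorin gene, stood at 4.18, 8.25, 4.24 and 4.65, and Ntn1, which encodes netrin 1, at 8.41, 5.51, 8.18 and 8.45. Notch pathway members were also mixed: Dll3, an inhibitory ligand gene typical of small cell lung cancer, stood at 7.42, 9.17, 7.30 and 7.02, and Nrarp, a feedback inhibitor gene, at 8.28, 6.64, 8.13 and 8.33.

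All 5 glycolysis genes of the class were lower in C-Myc 2. Aldoa, which encodes aldolase A, stood at 12.39, 10.60, 12.12 and 11.98, with preSC at 10.81 to 11.08. Pfkl and Pfkm, the liver and muscle forms of phosphofructokinase, stood at 10.27, 8.87, 10.55 and 10.21 and at 9.19, 7.83, 9.60 and 9.24, and Slc16a1, which exports lactate, at 11.56, 10.10, 11.23 and 11.40. Of the 20 glycolysis genes tested, 17 lay below the N-Myc mean in C-Myc 2 and 9 in C-Myc 1, with medians of -0.49 and 0.11. The medians over all tested genes were -0.02 and -0.01, with 51.8% and 52.5% below the mean. For glycolysis, preSC, L-Myc 1 and L-Myc 2 had medians of -0.62, -0.59 and -0.52. The low level was thus not particular to C-Myc 2, and C-Myc 1 and the N-Myc arrays were the higher ones.

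Ribosome biogenesis, the group best known as a MYC target, showed opposite deviations in the C-Myc arrays. The median of its 68 genes was 0.29 above the N-Myc mean in C-Myc 1 and was -0.32 in C-Myc 2, so that the C-Myc group median was 0.00. In C-Myc 1, 66 of 68 lay above the N-Myc mean (47.5% of all tested genes did), and 64 above both N-Myc arrays (4337 of 12976). In C-Myc 2, 55 of 68 lay below it (51.8% of all tested genes), and 50 below both N-Myc arrays (5653 of 12976 tested genes). The difference between N-Myc 1 and N-Myc 2 had a median of -0.03 over these genes. preSC, L-Myc 1 and L-Myc 2 had medians of -1.04, -0.67 and -0.32 against the N-Myc mean. The preSC arrays also stood apart in control probe sets. For Dap, a spiked-in bacterial control, the 5' minus 3' difference was -3.66 to -3.40 against -1.68 to -1.51 in the 6 transduced arrays. For the mouse transcript Actb it was -0.85 to -0.62 in preSC against -0.31 to -0.20. The ribosomal RNA signal was 12.9 to 13.9 in preSC against 8.22 to 9.35. The part of these differences in the preSC levels was not tested. Noc2l, a nucleolar complex gene, stood at 9.82, 7.18, 9.41 and 9.13 and Nop16, a nucleolar protein gene, at 10.09, 8.50, 9.78 and 9.36. No gene of the list passed the limma test.

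Related biosynthetic lists also lay above the N-Myc mean in C-Myc 1 and below it in C-Myc 2. Medians in C-Myc 1 and C-Myc 2 were 0.21 and -0.20 for the machinery of RNA polymerases I and III, 0.15 and -0.29 for aminoacyl-tRNA synthetases, 0.12 and -0.21 for nucleotide and one-carbon synthesis and 0.13 and -0.39 for cholesterol synthesis. In the same order of lists, medians were -0.33, -0.55, -0.82 and -0.38 in preSC. They were -0.19, -0.23, -0.39 and -0.25 in L-Myc 1 and -0.14, -0.17, -0.25 and -0.29 in L-Myc 2. Polr1b, a subunit of RNA polymerase I, stood at 8.62, 7.20, 8.42 and 8.14. Srm, a spermidine synthase gene and well-known MYC target, stood at 12.55, 10.05, 12.41 and 12.08, and Cad, which starts pyrimidine synthesis, at 9.86, 8.01, 9.95 and 9.31. Most mitosis genes lay above the N-Myc mean, 24 of 27 in C-Myc 1 and 21 in C-Myc 2, with medians of 0.08 and 0.41. Of all tested genes, 47.5% and 48.2% did. L-Myc 1, L-Myc 2 and preSC also lay above it, with mitosis medians of 0.42, 0.29 and 0.23. Ccnb2, a mitotic cyclin gene, stood at 10.02, 11.71, 10.21 and 10.22, so it was below both N-Myc arrays in C-Myc 1.

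Epithelial genes lay on one side in C-Myc 1. All 38 tested members lay below the N-Myc mean in C-Myc 1 and 36 below both N-Myc arrays, with a median of -0.52 and a range of -1.38 to -0.08. Over all tested genes 52.5% lay below the mean, and 4917 of 12976 lay below both N-Myc arrays. Krt8 and Krt18, partner keratins of simple epithelia, stood at 11.06 and 9.99 in C-Myc 1 against 12.41 and 11.39 in C-Myc 2, 12.37 and 11.44 in N-Myc 1 and 12.38 and 11.29 in N-Myc 2. Dsp, which encodes desmoplakin, stood at 9.15, 10.13, 10.49 and 10.32, Epcam at 11.36, 12.45, 11.85 and 12.01 and Cdh1, which encodes E-cadherin, at 10.78, 11.19, 11.06 and 11.39. The epithelial transcription factor gene Ehf stood at 5.02, 8.02, 6.18 and 6.10, so C-Myc 1 lay below and C-Myc 2 above the N-Myc arrays. In C-Myc 2 the list was split, 22 members below and 16 above, and its median was -0.04. L-Myc 1 was lower still, with a median of -1.53, while L-Myc 2 was at 0.07. Dsp, Epcam, Cdh1 and Ehf were chosen after their values were seen.

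Genes apart only in C-Myc 1 were few. Besides the keratins, the lower ones included Smim22, at 6.60, 7.99, 8.13 and 8.03, and Lxn, the carboxypeptidase inhibitor latexin, at 6.20, 7.45, 7.72 and 7.63. The higher ones were Fat4, an atypical cadherin gene, at 7.05, 5.15, 5.56 and 5.46, Smpdl3b, at 8.38, 6.70, 6.93 and 7.18, and Fndc4, at 6.74, 5.52, 5.66 and 5.54. The largest distance of C-Myc 1 from the N-Myc mean was 2.43, in Lyz1.

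**Figure D4:**
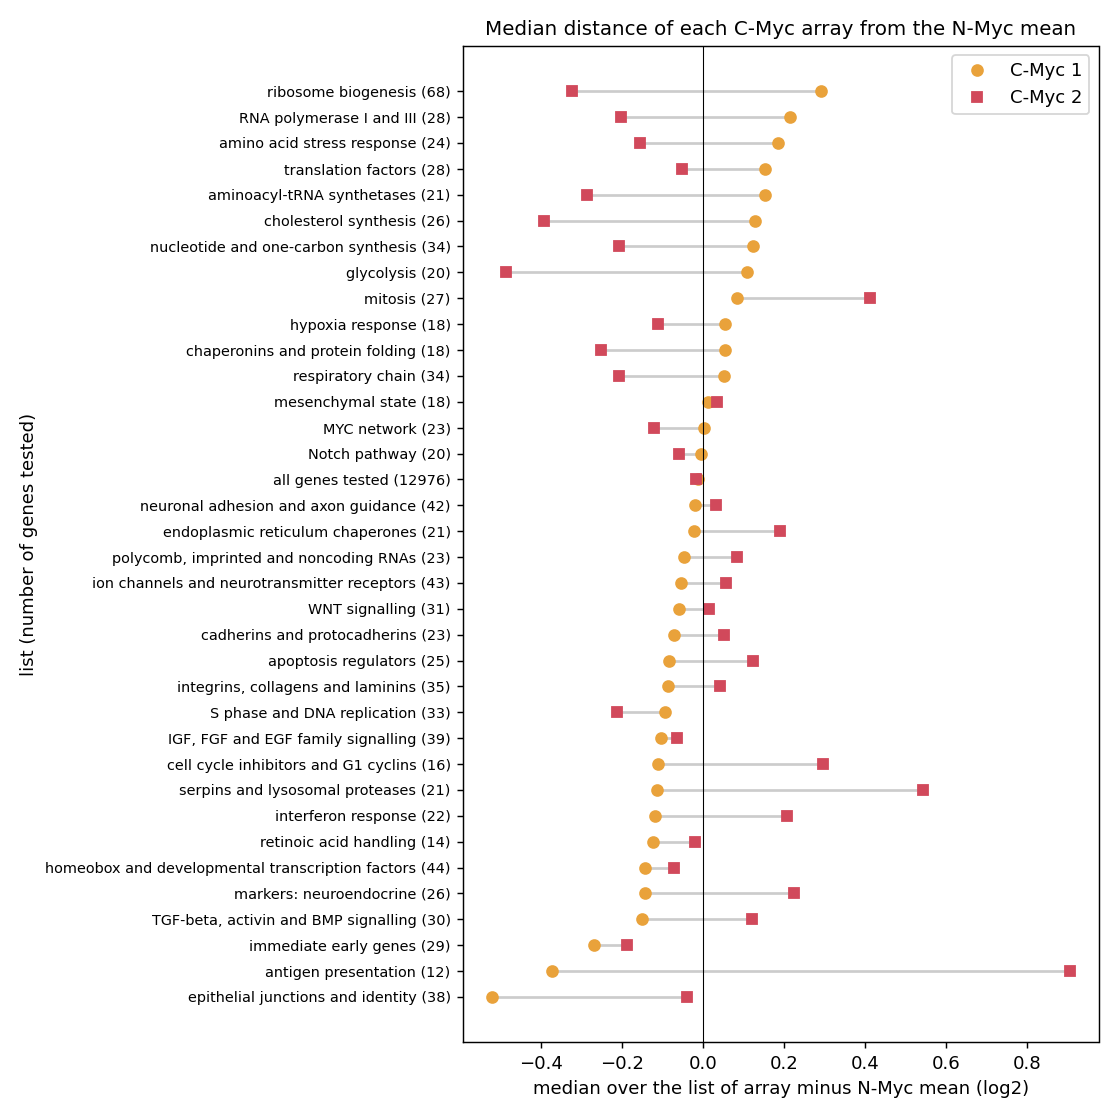
Median over each gene list (rows, with the number of genes tested) of the difference from the N-Myc mean in log2 units, as circles for C-Myc 1 and squares for C-Myc 2. Ribosome biogenesis lies at 0.29 and -0.32, antigen presentation at -0.37 and 0.91 and epithelial genes at -0.52 and -0.04, while the medians over all genes are -0.01 and -0.02.

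Genes apart only in C-Myc 2 were also counted by chromosome. This description was chosen after the values were seen and uses RefSeq only for which chromosome a gene is on and which genes are neighbours. On chromosome 9, 733 genes were tested. Their median difference from the N-Myc mean was 0.49 in C-Myc 2 and 0.04 in C-Myc 1, and 83.5% lay above the N-Myc mean in C-Myc 2. On chromosome 19, with 451 tested genes, the medians were 0.44 and -0.02, and 83.6% lay above. preSC 1, 2 and 3 and L-Myc 1 and 2 were also high, with medians of 0.62, 0.62, 0.64, 0.52 and 0.50 on chromosome 9 and 0.47, 0.41, 0.50, 0.56 and 0.48 on chromosome 19. On these 2 chromosomes, then, C-Myc 1 and the N-Myc arrays lay together below all 6 other arrays. On the 18 other chromosomes the median in C-Myc 2 lay between -0.18 and 0.16, and in C-Myc 1 over all 20 between -0.08 and 0.06.

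Of the 66 genes of chromosome 9 apart only in C-Myc 2 (9.0% of its tested genes), 64 were higher, as were 33 of 34 on chromosome 19 (7.5%). Over all tested genes the class held 5.75%, and 458 of its 746 genes were higher. These directions rest on the same C-Myc 2 values as the chromosome medians. The higher genes include Ccnb2 and Birc3, an inhibitor of apoptosis gene at 5.86, 7.28, 5.61 and 5.72, on chromosome 9. On chromosome 19 they include Anxa1, Ifit2 and Ovol1, an epithelial transcription factor gene at 4.80, 6.65, 5.34 and 4.85. Chromosome 4 held 97 genes of the class, 12.1% of its 801 tested genes, and 65 were lower. Of these lower genes, 58 lay in 1 run of 179 neighbouring tested genes from Cela3b to Perm1. The run was picked by its low C-Myc 2 medians in windows of 25 neighbouring genes, so its C-Myc 2 values partly follow from that choice. Its median was -0.90 in C-Myc 2 and 0.04 in C-Myc 1, and 163 of the 179 genes lay below the N-Myc mean in C-Myc 2. The run was low in L-Myc 2 and preSC 3 as well, at -0.87 and -0.61, and less so in preSC 1, preSC 2 and L-Myc 1, at -0.14, -0.23 and -0.24. Srm, Hes5, a Notch target gene at 7.10, 5.96, 6.99 and 6.96, and Sdhb, a subunit of respiratory complex II at 12.79, 11.23, 12.58 and 12.44, lie in it.

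Shorter runs were found in the same way, with windows of 25 neighbouring genes whose median in C-Myc 2 reached 0.75 in size. A run of 44 genes on chromosome 11, from Papolg to Pank3, had medians of -0.77 in C-Myc 2, -0.69 in L-Myc 2 and -0.48 in preSC 3, against -0.09, -0.09, -0.02 and 0.00 in preSC 1, preSC 2, L-Myc 1 and C-Myc 1. A run of 25 genes on chromosome 16, from Filip1l to Chodl, which holds Epha3, had medians of 1.01 in C-Myc 2, 0.67 in L-Myc 2 and 0.10 in C-Myc 1. Over all windows the median ranged from -1.26 to 1.03 in C-Myc 2 and from -0.24 to 0.24 in C-Myc 1. Chromosomes 9 and 19 and the runs together held 173 of the 746 genes apart only in C-Myc 2 (23.2%), so 573 lay elsewhere. Of the 12976 tested genes, 11544 lay elsewhere. The runs were picked from the same C-Myc 2 differences that define the class, so the 23.2% and the C-Myc 2 medians of the runs are partly set by that choice. With the second-brightest probe set of each gene, the C-Myc 2 medians were 0.39, 0.36 and -0.70 on chromosome 9, chromosome 19 and the chromosome 4 run. DNA copy number was not measured, and its part in these runs was not tested.

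**Figure D5:**
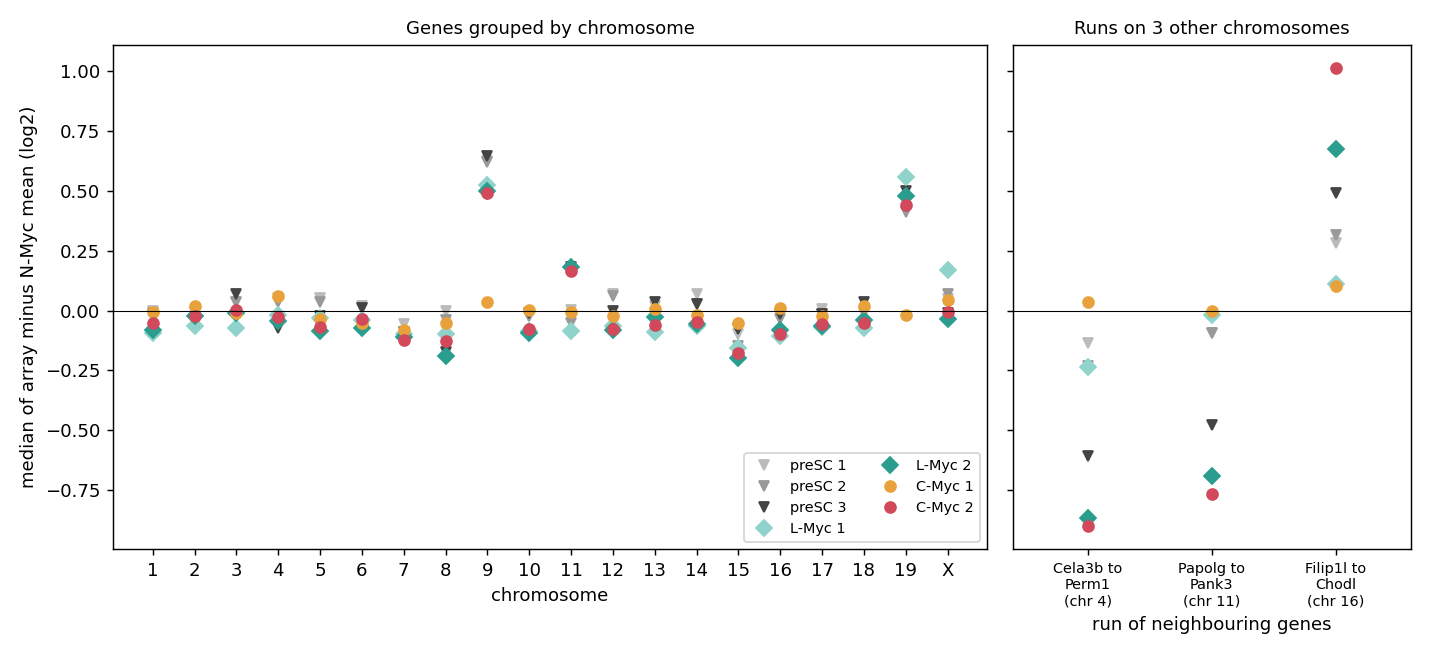
Median over the tested genes of a chromosome (left, x axis) or of 3 runs of neighbouring genes (right) of each array minus the N-Myc mean, in log2 units on the y axis, with 1 symbol per array. On chromosomes 9 and 19 C-Myc 1 is near 0 and the 6 other arrays shown lie between 0.41 and 0.64, and on the chromosome 4 run C-Myc 2, L-Myc 2 and preSC 3 are lowest.

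Since C-Myc 2 and L-Myc 2 were so alike, the genes that did separate them were examined. Of 12976 tested genes, 17 differed at least 2-fold, 8 higher and 9 lower in C-Myc 2. With 1 probe set per gene, Myc led, and the next largest difference was 2.01 in size. Pvt1 was 1.23 above L-Myc 2, and Ak4, a mitochondrial adenylate kinase gene, was 1.10 above it, at 7.32 and 8.58 in C-Myc 1 and 2, 6.17 and 6.73 in the N-Myc arrays and 7.48 in L-Myc 2. On the second-brightest Mycl probe set, outside that ranking, C-Myc 2 at 8.52 was farther still from L-Myc 2 at 12.74, with a difference of -4.23. Of the 17, 1 also lay at least 2-fold from the N-Myc mean on the same side in C-Myc 1: Epas1, the gene for hypoxia-inducible factor 2 alpha, at 4.87 in C-Myc 2 and 5.87 in L-Myc 2.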

How the data were processed

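Log2 values, 1 per probe set and array, were used as the authors deposited them; per the submitters' processing notes they came from RMA with the affy package in R 3.0.1. RMA forces all 9 arrays to a common distribution, which hides any shift shared by all transcripts and compresses dim values. Array medians lay between 6.02 and 6.07. Of 45101 probe sets, 34958 had 1 gene symbol in the platform table, 932 several and 9211 were not listed, and 64 are controls. Each of 18193 genes took its brightest probe set, and the 12976 genes above the 40th percentile (5.28 to 5.34) in at least 2 arrays were tested.

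Group means were fitted to the 9 arrays with limma 3.58.1 (R 4.3.3, lmFit and eBayes, 5 residual degrees of freedom), two-sided, with Benjamini-Hochberg adjustment over all tested genes at 0.05. The fit was checked on simulated data. In the classes, arrays called apart differ by at least 1 log2 unit (2-fold), and the array called close lies within 0.5 log2 units of the N-Myc mean. The number of arrays limits the precision, and p-values measure only the spread between these arrays.

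The comparison, its classes and the gene lists were chosen with earlier results of these data known. Named genes are the MYC genes and Pvt1, the 12 (both arrays), 15 (C-Myc 2 only) and 4 (C-Myc 1 only) widest gaps in each direction, up to 4 members per list, and those just inside and outside a threshold. The neighbours of Myc, genes marked so in the text and the description by chromosome were chosen after values were seen. For the probe sets, the genome build was not given in the sources used here. Alternatives changed the probe set, filter, scaling, fit, thresholds and arrays left out.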

Additional observations from a re-analysis of the deposited data

How the results depend on the processing

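The comparison of group means called 0 genes in every alternative except 1: other filters, scalings, probe sets, priors and array weights gave 0 calls with 272 to 775 genes at an unadjusted p under 0.05, and the 4 C-Myc and N-Myc arrays alone gave 0 with 369. Leaving out 1 array at a time gave 0 to 419 calls, 0 to 264 higher and 0 to 155 lower, the highest without C-Myc 1. With the replicate number as a block the count was also 0, with 739 genes at an unadjusted p under 0.05; the labels give no shared batch, and the deviations of same-numbered arrays (C-Myc 1 with N-Myc 1) correlated at 0.14, and with 2 pairs the numbers were not taken to pair the arrays. Of 167 named genes, the sign of the difference was the opposite for 73 without C-Myc 2 and for 7 without C-Myc 1. Many of these genes were named for a wide gap in C-Myc 2 with C-Myc 1 close to the N-Myc mean. The sign counts therefore partly follow from the choice of genes.

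The classes depend on their thresholds. Genes apart in both C-Myc arrays numbered 92 at 1.5-fold, 2 at 3-fold, 4 on second-brightest probe sets, 12 on the mean of probe sets, and 32 to 44 without N-Myc 1 or N-Myc 2. Genes apart only in C-Myc 2 numbered 1874, 298 and 345 at 1.5-fold, 3-fold and on second-brightest probe sets, and 801 to 853 without an N-Myc array. Genes apart only in C-Myc 1 numbered 104, 0, 2 and 6 at 1.5-fold, 3-fold, on second-brightest probe sets and on the mean, and 15 to 19 without an N-Myc array.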
